A study of Mus musculus with 2 samples.

Results

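The Mest imprinted domain of mouse chromosome 6 was examined through 4 genes, Mest, Copg2, Klf14 and Cep41, taken by name from a table of 48550 rows. The values come from F121-6 cells, a female embryonic stem (ES) cell line of a hybrid cross with 1 chromosome set of the 129 strain and 1 of *Mus musculus castaneus* (cas), grown on a layer of embryonic fibroblasts (MEFs) that mitomycin C had stopped from dividing, in medium with serum and LIF. Nuclear RNA, which holds unspliced as well as mature transcripts, was sequenced from 2 libraries, both of this single line and culture condition, and the reads of each gene were split between the 129 and the cas allele. The comparison in each library was therefore 129 against cas within the same RNA, as part of a study of allelic differences in expression and genome organization. The libraries held 28523744 and 31402765 allele reads, of which 53.64% and 54.16% came from 129. The labels name neither the strain of the mother nor that of the feeder cells. They do not give separate cultures for libraries 1 and 2 either. The p-values rest on the spread between these libraries, pooled over genes of like abundance, and that spread may be technical.

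Imprinted genes are transcribed mainly from the chromosome of 1 parent, under the control of DNA methylation laid down in the egg or the sperm. Mest (also called Peg1) encodes a protein of the alpha/beta hydrolase fold and is known in mouse as a paternally expressed gene, whose main promoter carries methylation on the maternal copy. It lies tail to tail with Copg2, which encodes a gamma subunit of the COPI coat of Golgi vesicles and is known for preferential maternal expression in some mouse tissues. Klf14 is an intronless gene for a Krüppel-like transcription factor known for maternal expression. Cep41, on the other side of Mest, encodes a centrosomal and ciliary protein that is altered in some human patients with Joubert syndrome.

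The annotation (GENCODE release M21, mm10) places Cep41 at 30653457 to 30693749 on the minus strand, Mest at 30723547 to 30748465 on the plus strand, Copg2 at 30747554 to 30896794 on the minus strand and Klf14 at 30956023 to 30959078 on the minus strand. The spans of Mest and Copg2 share 912 bp at their 3' ends. The deposited window of Mest was centred at 30723546, on the most upstream annotated start, which belongs to the transcripts Mest-201 and Mest-206. The transcripts Mest-211, Mest-202 and Mest-204 begin near 30738050, which is 14503 bp further downstream, and of the 11 annotated Mest transcripts 5 begin upstream of that point. The table has 1 row for Mest, so its starts cannot be told apart in the values below.

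**Figure D1:**
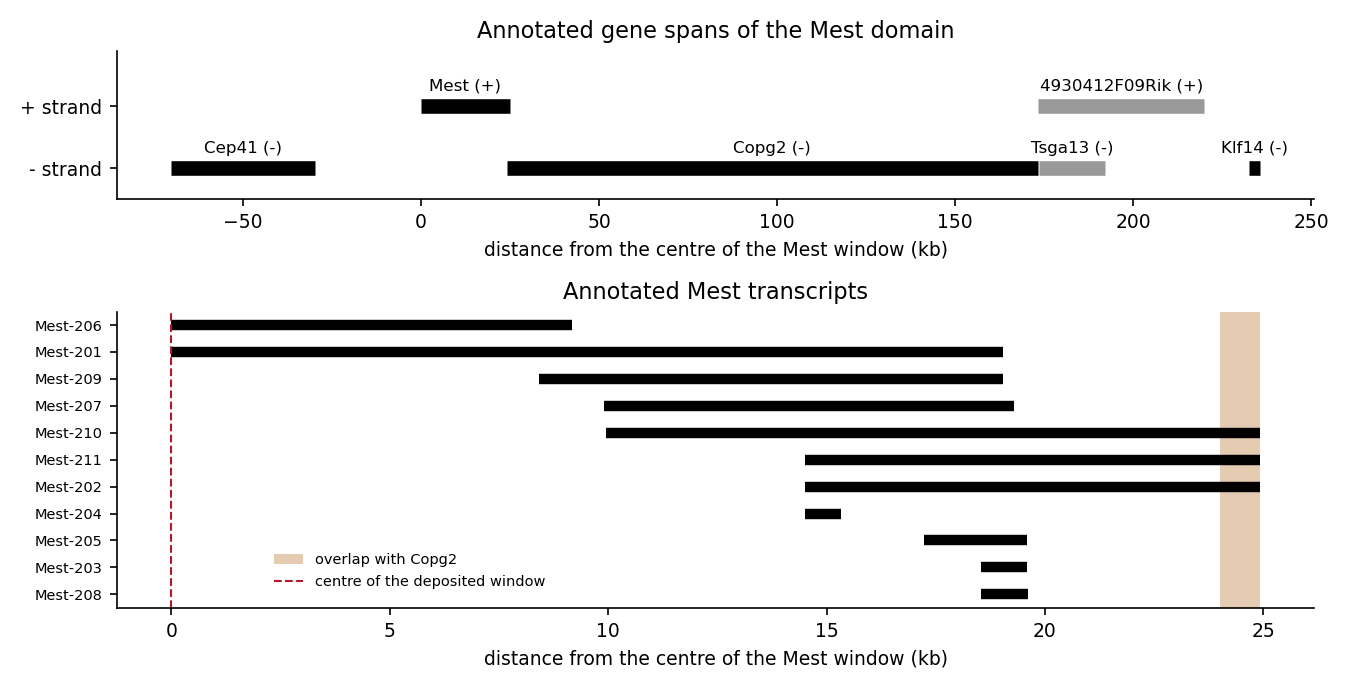
Annotated spans of the Mest domain genes (top, black; other genes grey) and of the 11 Mest transcripts (bottom), with distance in kb from the centre of the deposited Mest window on both horizontal axes. The window is centred on the start of Mest-201, and 3 Mest transcripts run into the 912 bp that Mest shares with Copg2.

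The start regions of the genes with reads are shown because Mest spans start sites of different make-up that share 1 row. They were taken from RefSeq (GRCm38.p6, the reference strain, so that neither the 129 nor the cas letters are implied) and run from 250 bases before to 50 bases after a start, in the direction of transcription, with each CG dinucleotide, the site of DNA methylation, in capitals. RefSeq start regions were held for 3 of the 4 genes. The region of the downstream Mest start (chr6:30737800-30738099, plus strand) holds 17 CG, that of a Mest start further upstream (chr6:30733256-30733555, plus strand) 8, that of Copg2 (chr6:30896745-30897044, minus strand) 25 and that of Cep41 (chr6:30693700-30693999, minus strand) 19.
Mest, downstream start: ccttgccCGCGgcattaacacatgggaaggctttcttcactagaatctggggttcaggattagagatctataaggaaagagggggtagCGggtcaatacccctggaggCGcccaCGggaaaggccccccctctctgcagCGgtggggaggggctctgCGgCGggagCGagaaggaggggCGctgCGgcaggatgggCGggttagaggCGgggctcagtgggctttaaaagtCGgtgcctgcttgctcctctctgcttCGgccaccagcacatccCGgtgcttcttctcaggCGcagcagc
Mest, upstream start: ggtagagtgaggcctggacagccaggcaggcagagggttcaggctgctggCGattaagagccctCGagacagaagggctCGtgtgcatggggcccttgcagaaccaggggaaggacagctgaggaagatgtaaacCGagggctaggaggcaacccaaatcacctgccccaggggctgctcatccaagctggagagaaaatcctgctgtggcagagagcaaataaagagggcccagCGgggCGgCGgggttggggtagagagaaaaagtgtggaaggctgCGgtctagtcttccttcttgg
Copg2: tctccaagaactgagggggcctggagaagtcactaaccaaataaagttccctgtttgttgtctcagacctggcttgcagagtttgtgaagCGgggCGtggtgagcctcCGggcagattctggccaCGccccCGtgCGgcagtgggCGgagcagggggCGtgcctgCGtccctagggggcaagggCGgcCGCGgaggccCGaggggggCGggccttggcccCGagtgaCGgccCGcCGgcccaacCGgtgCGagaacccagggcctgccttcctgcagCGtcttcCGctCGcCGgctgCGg
Cep41: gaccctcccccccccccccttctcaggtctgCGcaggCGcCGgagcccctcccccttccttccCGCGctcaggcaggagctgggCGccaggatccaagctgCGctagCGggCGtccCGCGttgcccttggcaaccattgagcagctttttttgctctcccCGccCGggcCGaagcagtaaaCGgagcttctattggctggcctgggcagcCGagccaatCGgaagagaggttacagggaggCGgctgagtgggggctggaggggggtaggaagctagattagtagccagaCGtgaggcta

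Across 32817 mouse start regions of the same length the median was 7 CG. At least 17 CG were found in 31.4% of them, at least 8 in 48.6%, at least 25 in 18.4% and at least 19 in 28.0%. The motif searched was the 2 letters CG, which read the same on both strands, and no methylation was measured in these data.

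Mest gave 184 and 214 reads from 129 in libraries 1 and 2, against 208 and 330 from cas. Of the 3 domain genes with reads, Mest alone gave more cas than 129 reads, in both libraries. As deposited, in RPKM (reads scaled to row length and column total), these values were 0.307 and 0.321 from 129, against 0.402 and 0.585 from cas. The 129 share was 46.9% in library 1 (exact 95% interval 41.9 to 52.0) and 39.3% in library 2 (35.2 to 43.6), or 43.1% ± 5.37 (SD, n = 2), and the intervals of the libraries overlap. Intervals cover counting error only. In bulk RNA, fewer cells that express an allele and less RNA per cell from it cannot be told apart. The median 129 share of the 15509 tested genes, those with at least 20 allele reads in each library, was 55.3% in library 1 and 56.0% in library 2, above both Mest intervals.

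Relative to that typical gene, Mest was lower from 129, with a log2(129/cas) of -0.72 (SE 0.20, limma adjusted p = 0.0014), a 1.65-fold difference. The ratio was -0.48 in library 1 and -0.97 in library 2, so the direction was shared, and a difference in size was not tested. This gap of 0.49 compares with a median gap of 0.27 among 1997 tested genes within 0.5 log2 units of its abundance. Of all tested genes, 30.4% had a gap at least as large. The SE pools the spread of genes of like abundance and does not show how far the Mest values themselves differed. With 1 library size shared by both alleles, which keeps the general excess of 129 reads in the ratio, Mest had -0.40 and lost its call (limma adjusted p = 0.081). Both alleles gave Mest reads in both libraries. These reads may include RNA of the feeder cells, whose strain the labels do not give. They therefore do not show that the ES cells used both alleles.

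**Figure D2:**
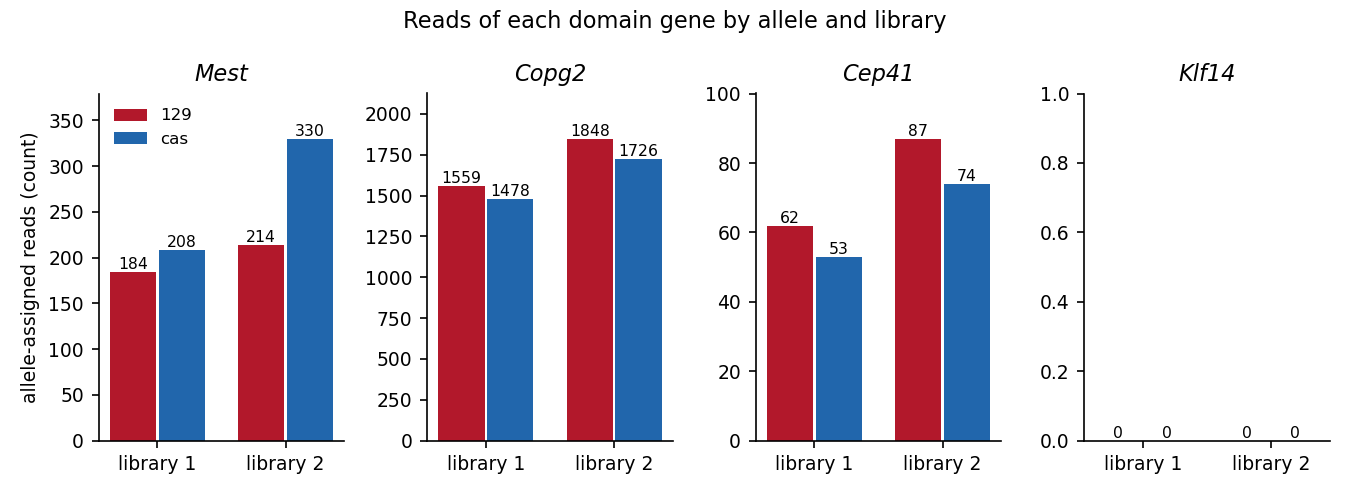
Allele-assigned reads of Mest, Copg2, Cep41 and Klf14 (panels, each with its own vertical axis in reads) from 129 (red) and cas (blue) in each library. Mest has more cas than 129 reads in both libraries, Copg2 and Cep41 have slightly more 129 than cas reads, and Klf14 is at 0.

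Copg2 gave 1559 and 1848 reads from 129, against 1478 and 1726 from cas in libraries 1 and 2. The alleles were close in both libraries, with a small excess of 129 reads. The 129 share was 51.3% (49.5 to 53.1) in library 1 and 51.7% (50.1 to 53.4) in library 2, a mean of 51.5% ± 0.26 (SD, n = 2). Because the typical gene gave more 129 reads than that, the log2 ratio relative to the typical gene was -0.24 (SE 0.08, limma adjusted p = 0.010), from -0.23 in library 1 and -0.25 in library 2. The direction depends on this scaling. It was 0.09 without a call with 1 shared library size, and -0.14 without a call with the column totals as deposited (limma adjusted p = 0.39 and 0.17). The call was also lost without the pairing of alleles by library (limma adjusted p = 0.17).

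Cep41 gave 62 and 87 reads from 129, against 53 and 74 from cas. The 129 shares of 53.9% (44.4 to 63.2) and 54.0% (46.0 to 61.9) held the median of all tested genes inside their intervals. Its log2 ratio was -0.10 (SE 0.35, limma adjusted p = 0.86), with -0.08 and -0.11 in the libraries. The ratio of Mest, -0.72, lies within 2 SE of it, so a difference of that size was not detectable at this depth.

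Klf14 had 0 reads from either allele in both libraries. A count of 0 allows up to 3 reads per library, or 0.105 and 0.0955 CPM (reads scaled to the allele reads of the whole library) in libraries 1 and 2. Allelic expression of Klf14 was therefore not measurable at this depth. Reads can be assigned to an allele only where the strains differ in sequence, and how many such sites Klf14 holds was not tested.

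Thus 3 of the 4 domain genes passed the filter on low reads. Of these, 2 were called, Mest and Copg2, both higher from cas relative to the typical gene. Both calls were lost when the alleles shared a library size. Copg2 gave more 129 than cas reads in both libraries, and its call was also lost with the deposited column totals and without the library block. Over all tested genes 43.7% were called, 21.9% higher from 129 and 21.9% higher from cas. Of all tested genes, 12.3% had a ratio at or below that of Mest and 32.3% one at or below that of Copg2.

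The level of each gene was compared as CPM per kb of annotated span, since the deposited lengths do not match the genes beside them (39159 bp for Mest, whose annotated span is 24919 bp). On this scale Copg2 was highest with 0.713 and 0.763 in libraries 1 and 2, followed by Mest with 0.552 and 0.695, Cep41 with 0.10 and 0.127, and Klf14 at 0. The values of Copg2 and Mest did not overlap but lay close, and both were above those of Cep41 in each library. The number of sites that tell the alleles apart also enters these levels and was not tested.

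Overlap between genes bears on what the domain rows can show. The table lists small genes inside Mest, and all 4 of them, among them Mir335 (an intronic microRNA gene) and the antisense Gm44296, had 0 reads in every column. Over the whole table, rows lying wholly inside another annotated gene were at 0 in 98.2% of 5030 cases on the same strand and in 97.5% of 5184 cases on the opposite strand, against 46.1% of 24738 rows with no overlap. Among protein-coding genes the shares were 94.9% of 391, 92.9% of 784 and 22.8% of 11404. A 0 in such a row was therefore not read as absence of expression, and what gave these zeros was not tested. Klf14 overlaps no annotated gene, so its 0 is not of this kind. Mest is overlapped by 5 other genes over 8.97% of its span and 23.1% of its exonic bases, and the exonic part is the 912 bp shared with Copg2. For Copg2 these shares were 0.611% and 17.8%, and for Cep41, whose only overlapping gene is the antisense Gm13782, 20.7% and 12.3%. The use of strand in counting is not stated, so reads of Mest and Copg2 from the shared stretch cannot be told apart. Whether such reads were counted for either gene was not tested.

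**Figure D3:**
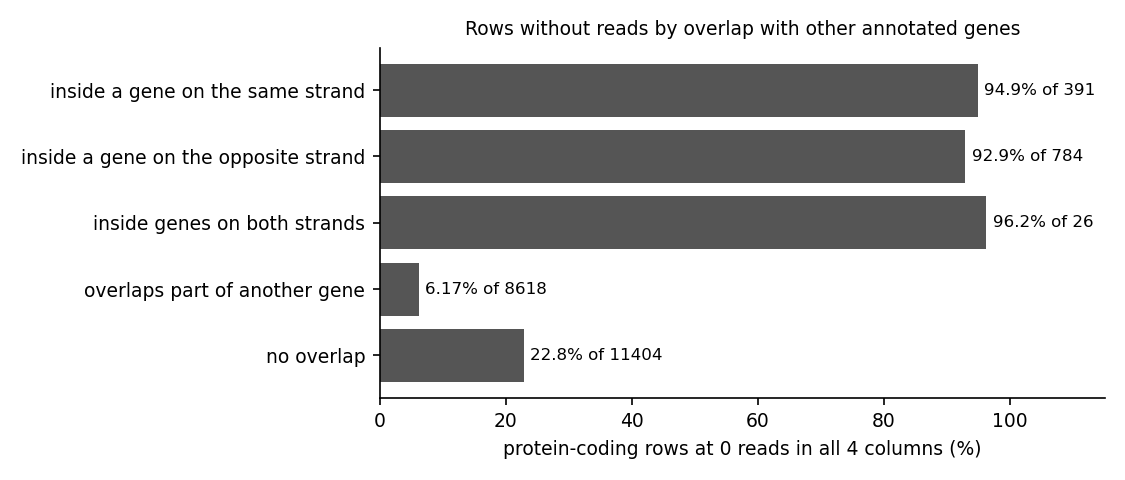
Percentage of protein-coding rows with 0 reads in all 4 columns, by position relative to other annotated genes (number of rows beside each bar). Rows inside another gene were at 0 in 92.9% to 96.2% of cases, against 22.8% of the rows with no overlap.

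Around the domain, 37 further rows had a window centre within 500 kb of the outermost domain genes, of which 9 passed the filter and 16 were at 0 in all columns. Among the rows below the filter were 1700095J07Rik, Gm25625, 1700012C14Rik, Ssmem1, Cpa4, Cpa5, Cpa1, 4930412F09Rik, Mir29a, Gm27019 and Gm14532, all with few reads, while n-R5s161, Gm13781, Gm13782, Gm14528, Tsga13, Mir29b-1, Gm13833, 5330406M23Rik, Gm13835, Gm37728, Gm43800 and Gm13844 were at 0 like the 4 rows inside Mest. All 14 that lie inside another gene were among those at 0, and 2 of the 22 other annotated rows were. Of the 9 tested neighbours 3 were higher from 129 and 1 from cas, with a median log2 ratio of 0.00, the same as over all tested genes. Ube2h, a ubiquitin-conjugating enzyme gene, gave 3604 and 3790 reads from 129, against 3974 and 3645 from cas, and had a ratio of -0.37 (SE 0.06, limma adjusted p = 6.1e-08). That ratio lost its call with 1 shared library size, at -0.04. Zc3hc1, which encodes a protein of the nuclear basket, had 0.48 (SE 0.16) with 63.7% ± 0.94 of its reads from 129. Lncpint, a long noncoding RNA, had 0.23 (SE 0.06), with per-library ratios of 0.09 and 0.37.

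The most one-sided neighbour was the noncoding row 2210408F21Rik, which gave 108 and 166 reads of the 129 allele, against 16 and 10 of the cas allele. Its log2 ratio was 2.94 (SE 0.45, limma adjusted p = 2.1e-08). Both libraries lay far on the 129 side, at shares of 87.1% and 94.3%. Tmem209, Klhdc10, Mkln1 (which encodes muskelin), Mkln1os and Gm13834 were not called, with ratios of -0.22, 0.11, 0.00, -0.25 and -0.04. With 1 shared library size Klhdc10 and Mkln1 were called higher from 129, at 0.43 and 0.32. The flanking Cep41 and Copg2 had shares nearer to the median of all genes than Mest.

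**Figure D4:**
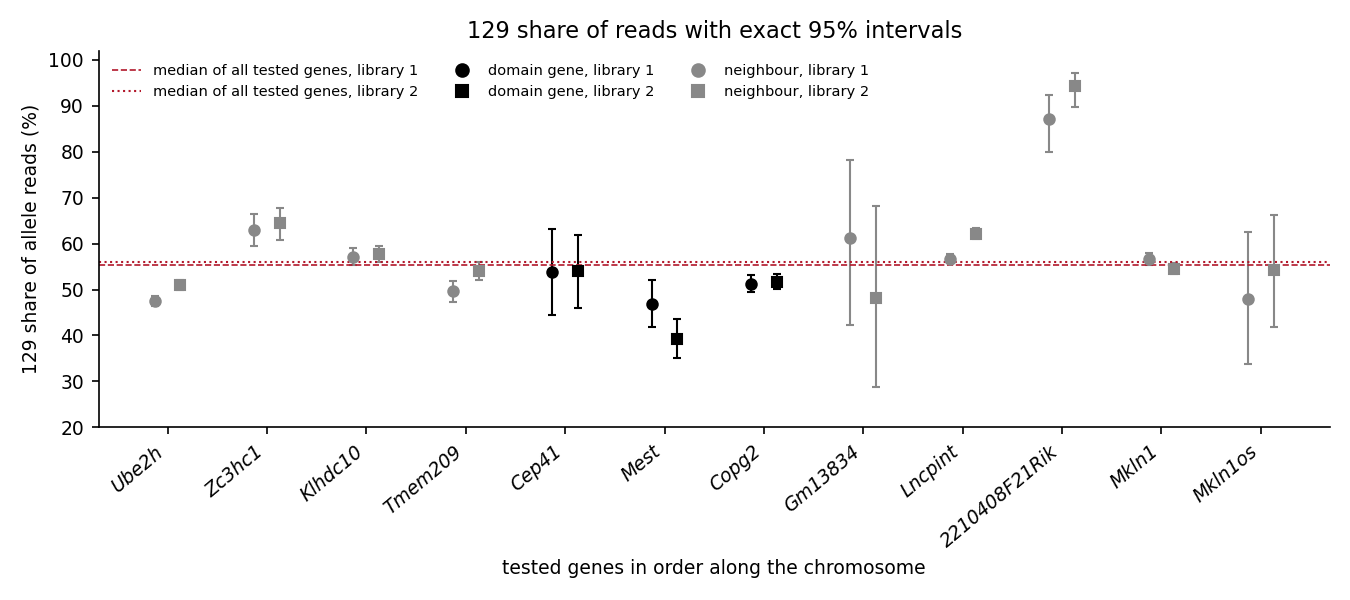
The 129 share of allele reads, in percent, of the 3 tested domain genes (black) and 9 tested neighbours (grey), in chromosomal order, for library 1 (circles) and library 2 (squares), with exact 95% intervals that cover counting error only. The vertical axis starts at 20, and dashed and dotted lines mark the medians of 55.3% and 56.0% over all tested genes. Both Mest points lie below these lines and 2210408F21Rik lies far above them.

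A search for like patterns covered 10557 genes with established symbols and a minimum of 100 allele reads per library. Those whose ratios in the libraries lay nearest to the pair of Mest values were Snx31, Ccdc170, Spock3, Chga and Sumo2, at distances of 0.022 to 0.045 in log2 units over 2 libraries. All 5 lie on other chromosomes. The nearest to Copg2 were Vps50, Insig1, Itpkb, Parvg and Taok3, at 0.002 to 0.007. Of these 10 only Vps50 lies on chromosome 6.

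The paternally expressed list, to which Mest belongs, had 24 tested genes of 38, 6 higher from 129 and 10 from cas, and a median log2 ratio of -0.24 (-0.14 in library 1 and -0.34 in library 2) against 0.00 over all tested genes. These counts were 8 and 6 with 1 shared library size. With the scaling as reported, 21.9% of all tested genes were called in each direction, beside which the counts of this and the later lists stand. The list counts with 1 shared library size stand beside 6505 of 15509 tested genes higher from 129 and 1492 from cas. With the deposited column totals these were 4188 and 2578. Its genes with the most reads went both ways, with 1.86 (SE 0.06) for Sfmbt2, a Polycomb-related gene, and -0.50 (SE 0.06), -0.49 (SE 0.06) and -0.30 (SE 0.06) for Impact, the amino acid transporter gene Slc38a4 and Zdbf2, of which Zdbf2 turned to 0.03 without a call with 1 shared library size. The maternally expressed list, with Copg2 and Klf14, had 25 tested genes of 37, 5 higher from 129 and 8 from cas (9 and 4 with 1 shared library size), with a median of -0.12. Its most abundant genes were Cobl (0.25), Rian (-2.12), Ppp1r9a (-0.24) and Trappc9 (-0.27), and the last pair turned positive with 1 shared library size, as did the median (0.19) and that of the paternal list (0.08). Of the 72 annotated genes on these lists, all 11 that lie inside another gene were at 0, as was only Klf14 of the other 61.

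In the COPI coat, all 9 subunit genes were tested and 2, Copg2 and Arcn1 (the delta subunit), were called, both higher from cas. Over all tested genes 21.9% were called higher from cas. The median of the 9 was -0.07, with 0.02 in library 1 and -0.15 in library 2, and 0.03 with the deposited column totals. Arcn1 had -0.49 (SE 0.12, limma adjusted p = 0.0005). The paralogue Copg1, the other gamma subunit, had -0.01 (SE 0.10), with 55.7% and 55.3% of its reads from 129, and Copa and Copb1 had 0.15 and 0.11, all without a call. With 1 shared library size none of these genes was called higher from cas and 3 were called higher from 129, at a median of 0.26. In CPM per kb of span, Copg2 had levels of 0.713 and 0.763 in the libraries, below the 2.44 and 2.19 of Copg1.

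Of 15 tested Krüppel-like factor genes out of 17, 3 were higher from 129 and 7 from cas, with a median of -0.27, and Klf14 was the only member at 0. The pluripotency factors Klf4 (-0.37, SE 0.06), Klf2 (-0.35, SE 0.11) and Klf5 (-0.16, SE 0.06) were higher from cas, as were Klf8 (-0.20), Klf12 (-0.49), Klf13 (-0.27) and Klf15 (-0.73), while Klf6 (0.53), Klf7 (0.41) and Klf16 (0.62) were higher from 129 and Klf9 (-0.12) was not called. With 1 shared library size 6 were higher from 129 and 2, Klf12 and Klf15, from cas. Klf5 reversed to a call higher from 129 there, at 0.16. Klf8 (0.13) and Klf13 (0.05) turned positive without a call, and Klf4 (-0.05) and Klf2 (-0.02) lost their calls. In the list of Joubert syndrome genes around Cep41, 4 of 25 tested were higher from 129 and 4 from cas (8 and 2 with 1 shared library size), with a median of -0.10. Cspp1 had -0.23 and Cc2d2a 0.28, both called, but Cspp1 lost its call with the deposited column totals and turned to 0.10 without a call with 1 shared library size, and Ofd1 (0.06) and Cep290 (-0.17) were not called. Of 24 tested alpha/beta hydrolase genes, Mest among them, 1 was higher from 129 and 7 from cas (4 and 1 with 1 shared library size), with a median of -0.06. The median of this list was lower in each library, at -0.14 in library 1 and -0.25 in library 2. Abhd12 (-0.28) and Abhd17c (-0.44) were called, but both lost the call with 1 shared library size, at 0.05 and -0.11. With the scaling as reported, Abhd17b (0.02) and Abhd2 (-0.01) were not called.

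Fibroblast markers differed between the alleles and stand beside the Mest result. The feeder layer was not removed from the RNA as far as the labels say, and Mest is known to be expressed in mesenchymal cells. Of 30 fibroblast markers 26 were tested, 19 of them higher from 129 and 0 from cas, with a median log2 ratio of 2.41, and Lum, S100a4 and Twist1 were at 0. Their summed level was 1401.5 and 1507.9 CPM from 129, against 710.9 and 652.4 from cas. These sums mainly follow Fn1, which held 1479.6 and 1382.8 CPM over both alleles in libraries 1 and 2. Of its reads 57.3% and 59.3% came from 129. Vim, the fibroblast intermediate filament gene, had 3.78, Cd44 4.48, Col5a1 1.01 and Fn1 0.16. The part of feeder RNA in the Mest reads of either allele, and so in the Mest ratio, was not tested.

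The 18 ES cell markers summed to 2761.0 and 2705.6 CPM from 129, against 2079.5 and 2017.4 from cas, and 17 were tested, 2 higher from 129 and 8 from cas, with a median of -0.17. These counts were 7 and 1 with 1 shared library size, and 5 and 5 with the deposited column totals. Sox2 alone was at 0, and it lies inside another annotated gene. Esrrb (-0.08), Tet1 (0.74), Tfcp2l1 (0.00) and Zfp42 (-0.36) had the most reads, and Esrrb, called higher from cas, was called higher from 129 (0.25) with 1 shared library size. Tet1 weighs on the ES cell sums, with 1287.1 and 1329.4 CPM over both alleles in libraries 1 and 2. Of its reads 68.1% and 67.2% came from 129. The 12 primitive endoderm markers summed to 261.1 and 292.3 from 129, against 277.5 and 286.6 from cas, with 3 of 8 tested genes higher from 129, 2 from cas and Afp at 0. Their median was 0.43, from 1.02 in library 1 and -0.09 in library 2. Of the 4 with the most reads, Lama1 (-0.67) and Col4a1 (-0.44) were called higher from cas. Dab2 (-0.19) was not called, and Pdgfra had 4.38. Col4a1 lost its call with 1 shared library size, at -0.11. The 10 trophoblast markers summed to 58.9 and 79.2 from 129, against 56.4 and 74.6 from cas, with 1 of 8 tested genes higher from 129, 2 from cas, none at 0 and a median of 0.11, with -0.13 in library 1 and 0.24 in library 2.

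**Figure D5:**
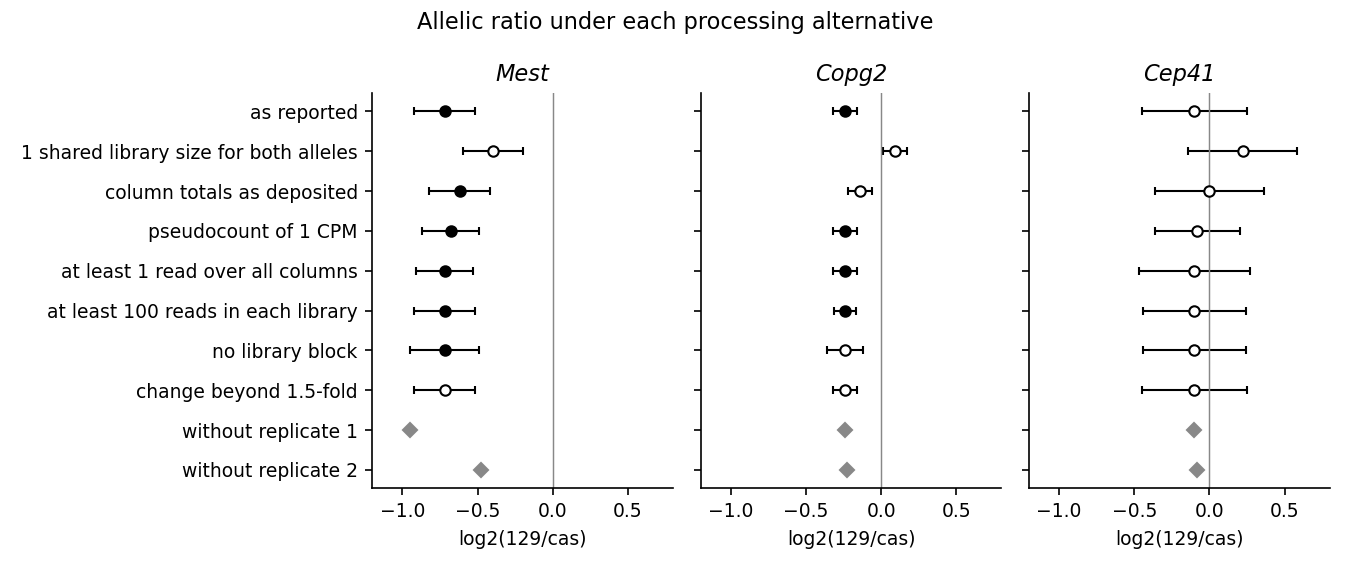
Log2(129/cas) of Mest, Copg2 and Cep41 (panels) as reported and under each alternative, with the standard error of the limma fit. Filled circles were called at an adjusted p under 0.05, open circles were not, and grey diamonds are values of a single library without a test. Mest stays below 0 throughout, whereas Copg2 and Cep41 change sign or reach 0 with another scaling.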

How the data were processed

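Total nuclear RNA was sequenced as 100 bp paired-end reads from strand-specific libraries that were sequenced again and merged with earlier reads, per the labels' protocols. Alignment used Bowtie2 and mm10, per the submitters' processing notes. Neither a counting program, a SNP set nor a strand setting is named there. The authors deposited RPKM in columns headed as counts: value times row length in kb summed to 999966.7 to 999996.2 per column and was a whole multiple of 1 step for 100.0% of values (tolerance 0.01 read). Reads recovered in this way numbered 15300476 (129) and 13223268 (cas) for library 1, with 17006241 (129) and 14396524 (cas) for library 2. Ratios were fitted with limma 3.58.1 (R 4.3.3) across all 15509 genes with at least 20 allele reads in each library, without 1570 Y-linked rows, on log2(CPM + 0.1), with trended variances and library as a block. The pseudocount makes fold changes of low genes too small. Column scaling used TMM factors, and p-values were adjusted by Benjamini-Hochberg; a call is an adjusted p under 0.05. The code was tested on simulated data. Rows were matched to GENCODE M21 by name, chromosome and strand (95.6%), and only 67 rows had a deposited length within 2 bp of their span. Alternatives were 2 other scalings, a pseudocount of 1, filters of 1 and 100 reads, no library block, a 1.5-fold threshold, an exact binomial test and each library alone. Named genes were the 4 domain genes, rows within 500 kb, the 5 genes of most like ratios for Mest and for Copg2, up to 4 genes of highest read count per list, and the called COPI and Krüppel-like genes. The genes and lists were chosen with earlier results of these data known. One row below the filter is not reported here.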

Additional observations from a re-analysis of the deposited data

How the results depend on the processing

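Mest stayed below 0 under all alternatives run. Its call was lost at -0.40 with 1 shared library size for both alleles and, at an unchanged -0.72, when a change beyond 1.5-fold was required (limma adjusted p = 0.081 and 0.90); over its tested alternatives the adjusted p ran from 0.0011 to 0.90. Copg2 reversed to 0.09 with 1 shared library size. It lost its call at -0.14 with the deposited column totals, at -0.24 without the library block and at -0.24 beyond 1.5-fold. The exact binomial test compared each gene with the 129 share of all allele reads of the library (53.64% and 54.16%) and covers counting error only. It called Mest and Copg2 higher from cas relative to that share. No alternative called Cep41. With the scaling recomputed on a single library, and no test, libraries 1 and 2 gave -0.48 and -0.95 for Mest, and -0.23 and -0.24 for Copg2. The 6782 calls over all genes became 3905 without the library block (2134 higher from 129, 1771 from cas) and 1949 beyond 1.5-fold (1173 and 776). With 1 shared library size 6505 were higher from 129 and 1492 from cas, and the median ratio was 0.32. Calls higher from 129 made up 81.3% there, 61.9% with the deposited totals, 60.2% beyond 1.5-fold, 61.1% by the binomial test and 50.0% as reported.

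List medians moved with the scaling as the typical gene did. With 1 shared library size they were 0.08 (paternal), 0.19 (maternal), 0.26 (COPI), 0.05 (Krüppel-like), 0.22 (Joubert), 0.26 (hydrolase), 0.15 (ES cell) and 0.42 (trophoblast). With the deposited totals they were -0.03 (maternal), -0.17 (Krüppel-like), 0.04 (hydrolase) and -0.07 (ES cell). In single libraries, rescaled alone, the medians ran from -0.33 to -0.14 (paternal), -0.14 to 0.02 (COPI), -0.13 to 0.25 (trophoblast), -0.12 to -0.07 (maternal), -0.24 to -0.14 (Krüppel-like), -0.11 to 0.12 (Joubert), -0.24 to -0.14 (hydrolase) and -0.14 to -0.09 (ES cell). The cause of these moves between libraries was not tested.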
